A study of Homo sapiens with 6 samples.

Results

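The genes described here are 40 genes of mitosis, the kinetochore and condensin, measured by polyA RNA-seq in MOLT-4. This cell line was established from a human acute lymphoblastic leukemia of the T lineage (T-ALL). The 40 genes were taken by name, and each matched a single gene among the 12652 genes with a mean of at least 1 FPKM (fragments per kilobase of transcript scaled to the mapped fragments of the library) that were tested. All 40 passed that filter, in each group taken separately as well as over both. The series has 3 libraries labelled wild type, used here as the control of the CRISPR knockout, and 3 libraries labelled IK-KO. The latter are from MOLT-4 in which IKZF1, the gene of the lymphoid transcription factor IKAROS, was targeted with CRISPR-Cas. Both lines were grown alike in serum-containing medium with no further agent. The knockout cells and their control were bought from a supplier of edited cells, the labels name no clone, and nothing states that the replicates were separate cultures. A difference between the groups therefore cannot be told apart from other differences between the lines, and the p-values measure only the spread between these libraries.

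Mitosis is driven by the kinase CDK1 with its cyclins, which brings about chromosome condensation and spindle assembly. Kinetochores, built on centromeres marked by the histone variant CENPA, attach the chromosomes to microtubules, and the spindle assembly checkpoint holds back the anaphase-promoting complex (APC/C) until each is attached. Securin and cyclin B are then destroyed, separase opens cohesin, and the central spindle guides cytokinesis. Most of these genes are transcribed mainly in late S phase, G2 and M, so in a bulk sample fewer cells in mitosis and less RNA per mitotic cell cannot be told apart.

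The targeted gene was examined before the mitotic genes. IKZF1 was at 134, 124 and 105 FPKM in wild type, against 207, 260 and 207 FPKM under the IK-KO label. Its RNA was higher rather than lower in all 3 edited libraries, with a log2 change of 0.89 (limma SE 0.12, adjusted p = 0.00295). The study reports that it checked the loss of IKAROS by PCR and western blot, and an RNA level does not measure protein. Every direction below refers to the label. The T-ALL markers checked (16 of 16) had a mean of at least 1 FPKM, and their summed level was 1705 to 1778 FPKM in wild type and 1567 to 1738 FPKM under the IK-KO label. Single markers were far lower under that label, among them CD4 (2.57 to 2.91 against 0.254 to 0.479 FPKM), CD7 (15.2 to 16.8 against 3.17 to 5.09 FPKM) and DNTT (81.6 to 89.7 against 24.7 to 28.0 FPKM), and CD1E, CD5, CD8A, RAG1, TAL1 and LMO2 were also below wild type in every library. The list went both ways, as CD1A (47.3 to 53.1 against 91.5 to 96.9 FPKM), CD3D, CD3G and PTCRA were above wild type in every library. The part of such differences in the results below was not tested. None of the 5 B cell, 6 myeloid, 4 erythroid and 4 fibroblast markers and 1 of the 4 epithelial markers (KRT8) had such a mean, and EPCAM was at 0 in every library.

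The mitotic genes were highly expressed, and their summed level did not separate the groups. The sum of their FPKM was 2328, 2335 and 2165 in wild type (2276 ± 96.3, SD, n = 3) against 2301, 2235 and 2312 under the IK-KO label (2283 ± 41.6, SD, n = 3). The groups overlapped in this sum, and wild type replicate 3 was the lowest of the 6 libraries. FPKM is scaled for transcript length, so levels can be compared between genes. PTTG1, which encodes securin, had the highest level in both groups, with 146 ± 3.01 FPKM in wild type (SD, n = 3), followed by CCNB1, which encodes cyclin B1, with 124 ± 5.45 FPKM. The lowest levels belonged to CENPE, a kinetochore kinesin, with 10.5 ± 2.61 FPKM, and MAD1L1, the kinetochore receptor of MAD2, with 6.13 ± 1.18 FPKM. Apart from this pair, every member had at least 14.9 FPKM as its wild type mean. The deposited confidence bounds lay a median of 7.19% to either side of a member's value, and between 3.02% and 48.7%, with the widest bounds for CENPE, MAD1L1 and NDC80.

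**Figure D1:**
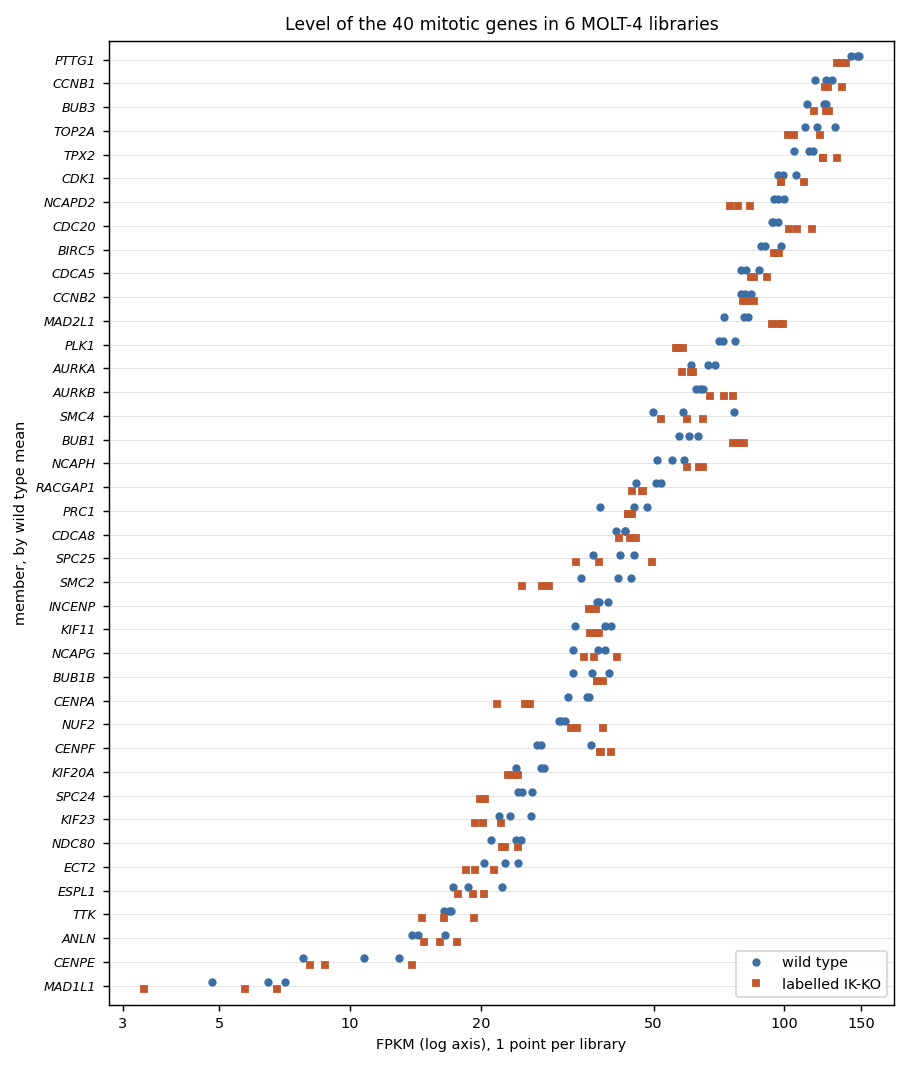
FPKM of the 40 mitotic genes on a log axis, 1 row per gene ordered by wild type mean, with circles for the 3 wild type libraries and squares for the 3 libraries labelled IK-KO. The wild type means run from 6.13 FPKM for MAD1L1 to 146 FPKM for PTTG1. The groups do not overlap in 15 of the 40 genes, beside 39% of all tested genes.

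The comparison asks which mitotic transcripts differ between the edited line and its control. At a limma adjusted p under 0.05 over all tested genes, the threshold for a call throughout, 7 of the 40 mitotic genes were called (17.5%), against 19.9% of all tested genes. BUB1 and MAD2L1 rose, and PLK1, CENPA, NCAPD2, SPC24 and SMC2 fell. The share of rises was 2 of 40, against 10.1% of all tested genes, and the share of falls was 5 of 40, against 9.75%. The libraries of the 2 groups were fully separate in 15 of the 40 genes, against 39% of all tested genes, and 13 had an unadjusted limma p under 0.05, as did 4227 of all 12652 tested genes. The split of the calls rests on few genes, with 3 higher and 3 lower without wild type replicate 2.

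The changes were small on the log2(FPKM + 1) scale, in which all changes are given. The median log2 change of the 40 genes was -0.00865, beside 0.02 for all tested genes, with 19 changes above 0 and 21 below. The median of the absolute change was 0.11, against 0.18 for all tested genes and 0.16 for the 8627 genes expressed at or above the level of the lowest member, of which 21.7% were called. The largest absolute change was 0.54, in SMC2, so no member changed by a factor of 2. Of the 33 uncalled genes, 30 had a 95% interval that stayed within 0.5 of 0. The exceptions were MAD1L1 (from -0.75 to 0.34), CENPE (from -0.59 to 0.50) and CENPF (from 0.10 to 0.61), whose intervals reached beyond that bound. The bound of 0.5 is larger than the absolute change of every called gene except SMC2. An interval within it can therefore still hold a change as large as most of those called.

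**Figure D2:**
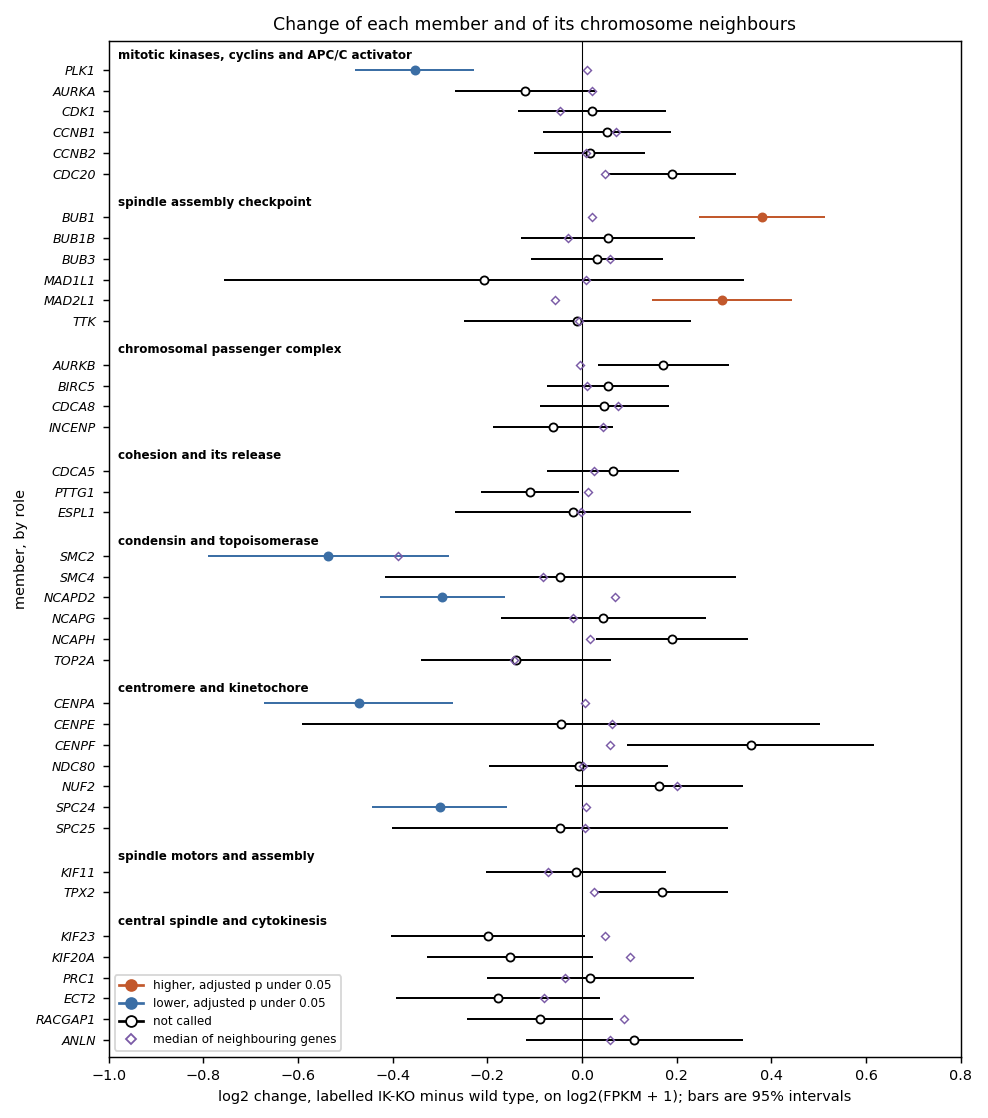
Log2 change of each of the 40 mitotic genes, libraries labelled IK-KO minus wild type on log2(FPKM + 1), grouped by role, with bars for the 95% interval and filled circles for called genes. Diamonds show the change in the median of the 25 nearest tested genes on each side (39 genes in all for MAD1L1 and 33 for NDC80, near chromosome ends). The 7 called genes lie between -0.54 and 0.38, and SMC2 is the only one of them whose neighbours had a median change beyond 0.1, at -0.39.

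Among the mitotic kinases, cyclins and the APC/C activator, 1 of 6 genes was called (16.7%, against 19.9% of all tested genes). PLK1 encodes Polo-like kinase 1, which acts in mitotic entry, centrosome maturation, kinetochore attachment and cytokinesis (chromosome 16, 23677656 to 23690367, GRCh38). PLK1 was at 72.2, 77.0 and 70.8 FPKM in wild type, against 56.8, 56.2 and 58.4 FPKM under the IK-KO label. Every wild type library lay above every edited library, and the gap between the groups was wider than the range within either. The mean fell from 73.3 ± 3.22 to 57.2 ± 1.15 FPKM (SD, n = 3), which is -0.35 in log2 (SE 0.05, limma adjusted p = 0.00433). This call was kept in all 15 alternative settings, with changes from -0.39 to -0.32.

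The partners of PLK1 in mitotic entry did not pass the test. CDK1 was at 101 ± 4.81 FPKM in wild type and 102 ± 7.21 FPKM under the IK-KO label (SD, n = 3), a log2 change of 0.02 with a 95% interval from -0.13 to 0.18. Its cyclins CCNB1 and CCNB2 had log2 changes of 0.05 and 0.02. AURKA, the centrosomal Aurora kinase that activates PLK1, was at 65.6 ± 4.17 and 60.2 ± 1.92 FPKM (SD, n = 3), a log2 change of -0.12 (limma adjusted p = 0.224). CDC20, which activates the APC/C to start anaphase, was at 94.1, 96.4 and 93.6 FPKM in wild type, against 107, 116 and 102 FPKM under the IK-KO label. The groups of CDC20 did not overlap, but its log2 change of 0.19 missed the threshold (SE 0.06, limma adjusted p = 0.0573). Its processed copy CDC20P1 was listed at up to 5.76 FPKM, and how fragments were divided between them is uncertain.

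In the spindle assembly checkpoint, which delays anaphase while kinetochores are unattached, 2 of 6 genes were called (33.3%, against 19.9% of all tested genes). Both were higher, beside 10.1% of all tested genes, and whether this small group differs from those shares was not tested. BUB1 is a kinase that phosphorylates histone H2A at centromeres and recruits other checkpoint proteins (chromosome 2, 110637528 to 110678063). BUB1 was at 63.1, 60.2 and 57.3 FPKM in wild type, against 80.9, 76.2 and 78.8 FPKM under the IK-KO label. The groups were well apart. The mean rose from 60.2 ± 2.90 to 78.6 ± 2.35 FPKM (SD, n = 3), which is 0.38 in log2 (SE 0.06, limma adjusted p = 0.00397), and the call was kept in all 15 alternatives with changes from 0.34 to 0.41.

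MAD2L1 encodes MAD2, the protein that binds and inhibits CDC20 (chromosome 4, 120055623 to 120066858). MAD2L1 was at 80.7, 82.4 and 72.4 FPKM in wild type, against 96.9, 93.5 and 99.0 FPKM under the IK-KO label. All 3 edited libraries exceeded the highest wild type library. The mean rose from 78.5 ± 5.37 to 96.5 ± 2.74 FPKM (SD, n = 3), which is 0.30 in log2 (SE 0.06, limma adjusted p = 0.0165). The call was lost without IK-KO replicate 1 (limma adjusted p = 0.0545), without IK-KO replicate 3 (0.0568) and with the replicate number as a block (0.0540).

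The remaining checkpoint genes were not called. BUB1B, which encodes the CDC20 inhibitor BUBR1, had a log2 change of 0.05, and BUB3, the scaffold that brings BUB1 and BUBR1 to kinetochores, one of 0.03. TTK, which encodes the kinase MPS1 at the head of the checkpoint, was at 16.8 ± 0.295 and 16.8 ± 2.33 FPKM (SD, n = 3), and its 95% interval ran from -0.25 to 0.23. MAD1L1 ranged from 4.82 to 7.09 FPKM in wild type and from 3.36 to 6.78 FPKM under the IK-KO label, too wide a spread to resolve a change. Whether BUB1 and MAD2L1 changed more than these 4 genes was not tested.

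None of the 4 genes of the chromosomal passenger complex was called, beside 19.9% of all tested genes. This complex carries Aurora B kinase to centromeres and later to the central spindle, where it corrects faulty attachments and acts in cytokinesis. AURKB, its kinase, was at 62.6, 65.0 and 63.8 FPKM in wild type, against 76.1, 67.6 and 72.4 FPKM under the IK-KO label. The groups did not overlap, and the log2 change was 0.17 (SE 0.06, limma adjusted p = 0.0805). BIRC5 (survivin) and CDCA8 (borealin), which target the complex to chromatin, had log2 changes of 0.06 and 0.05, and the scaffold INCENP had one of -0.06.

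Likewise, none of the 3 genes of cohesion and its release was called, beside the same 19.9%. CDCA5 encodes sororin, which protects cohesin on replicated chromosomes, and had a log2 change of 0.07. PTTG1 was at 142, 148 and 147 FPKM in wild type, against 135, 132 and 138 FPKM under the IK-KO label. Its groups did not overlap, and its log2 change was -0.11 (SE 0.04, limma adjusted p = 0.122). It passed only after quantile normalization (limma adjusted p = 0.0354). ESPL1, which encodes separase, the protease held by securin, was at 19.4 ± 2.62 and 19.1 ± 1.31 FPKM (SD, n = 3).

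Condensin I, the ring complex that compacts mitotic chromosomes, is listed here with topoisomerase IIα. Of these 6 genes 2 were called (33.3%, against 19.9% of all tested genes), both lower, beside 9.75% of all tested genes. NCAPD2 encodes a HEAT-repeat subunit of condensin I (chromosome 12, 6493356 to 6531955). NCAPD2 was at 96.8, 99.6 and 94.5 FPKM in wild type, against 75.0, 78.4 and 83.4 FPKM under the IK-KO label. The groups did not overlap, and IK-KO replicate 3 came nearest to wild type. The mean fell from 97.0 ± 2.52 to 78.9 ± 4.23 FPKM (SD, n = 3), which is -0.29 in log2 (SE 0.06, limma adjusted p = 0.0104), and the call was kept in all 15 alternatives. NCAPD2 shares 383 exon bases (5.92% of its exon sequence) with MRPL51 on the opposite strand, a gene listed at up to 178 FPKM. Whether strand was used in the quantification is not given in the sources used here, so fragments of the shared stretch cannot be told apart.

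SMC2 encodes an ATPase of the condensin core (chromosome 9, 104094260 to 104141419). It was at 44.3, 41.3 and 34.0 FPKM in wild type, against 28.7, 24.8 and 27.7 FPKM under the IK-KO label. The groups did not overlap, with wild type replicate 3 lying closer to the edited libraries than the other wild type libraries did. The mean fell from 39.8 ± 5.31 to 27.1 ± 1.98 FPKM (SD, n = 3), which is -0.54 in log2 (SE 0.11, limma adjusted p = 0.0136). The neighbours' median change over the 50 nearest tested genes was -0.39. On chromosome 9 as a whole the median of the changes of single genes was -0.35 over 469 tested genes, of which 229 were called. With the change of the neighbours removed, that of SMC2 was -0.15 (limma adjusted p = 0.265). The call was also lost without wild type replicate 2 (0.0501) and without the filter on low values (0.0574).

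The other 4 genes of this group were not called. SMC4, which pairs with SMC2 in the ring, was spread over 49.8 to 76.4 FPKM in wild type and 52.0 to 65.0 FPKM under the IK-KO label, a log2 change of -0.05 (limma adjusted p = 0.875), and shares 19.0% of its exon bases with TRIM59 on the opposite strand, listed at up to 7.89 FPKM. NCAPG, a second HEAT-repeat subunit, had a log2 change of 0.04, and 33.7% of its exon bases are shared with LCORL on the opposite strand, which was listed at up to 9.49 FPKM. NCAPH, the kleisin that closes the ring, was at 58.7, 55.1 and 50.9 FPKM in wild type, against 59.7, 64.9 and 63.4 FPKM under the IK-KO label. The NCAPH values did not overlap and leaned upwards, without passing the test (log2 change 0.19, SE 0.07, limma adjusted p = 0.0948). TOP2A, the topoisomerase that untangles sister chromatids, had a log2 change of -0.14 (limma adjusted p = 0.299) beside a median of -0.14 for its chromosome neighbours.

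At the centromere and kinetochore, 2 of 7 genes were called (28.6%, against 19.9% of all tested genes), both lower, beside 9.75% of all tested genes. CENPA replaces histone H3 in centromeric nucleosomes and marks where the kinetochore forms (chromosome 2, 26764289 to 26801067). CENPA was at 35.4, 35.1 and 31.7 FPKM in wild type, against 25.9, 25.3 and 21.8 FPKM under the IK-KO label. Each edited library lay below the lowest wild type library. The mean fell from 34.1 ± 2.03 to 24.3 ± 2.2 FPKM (SD, n = 3), which is -0.47 in log2 (SE 0.08, limma adjusted p = 0.00866). The call was kept in all 15 alternatives, with changes from -0.52 to -0.40, and the neighbours of CENPA had a median change of 0.01. CENPA shares 7.08% of its exon bases with SLC35F6 on the same strand, listed at up to 7.70 FPKM.

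SPC24 encodes the subunit that, with SPC25, anchors the NDC80 complex to the inner kinetochore (chromosome 19, 11131520 to 11155808). SPC24 was at 24.9, 26.2 and 24.4 FPKM in wild type, against 19.9, 20.3 and 20.5 FPKM under the IK-KO label. The edited libraries lay close together and below wild type. The mean fell from 25.2 ± 0.924 to 20.2 ± 0.267 FPKM (SD, n = 3), which is -0.30 in log2 (SE 0.06, limma adjusted p = 0.0129). Without wild type replicate 2 the call was lost (limma adjusted p = 0.0507).

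The 3 other genes of the NDC80 complex, whose NDC80 and NUF2 arms bind the microtubule, were not called. SPC25 ranged from 36.3 to 44.9 FPKM in wild type and from 33.2 to 49.6 FPKM under the IK-KO label, a log2 change of -0.05. NDC80 was at 23.3 ± 1.96 and 23.1 ± 1.05 FPKM (SD, n = 3). NUF2 had a log2 change of 0.16 (limma adjusted p = 0.177) beside a median of 0.20 for its neighbours on chromosome 1. CENPF, a large farnesylated protein of the outer kinetochore, was at 26.9, 35.8 and 27.5 FPKM in wild type, against 37.8, 37.7 and 39.9 FPKM under the IK-KO label. Wild type replicate 2 stood near the edited libraries, and the log2 change of 0.36 missed the threshold (SE 0.11, limma adjusted p = 0.0623). Without that library CENPF was called (limma adjusted p = 0.00791), as it was with the stricter filter on low values (0.0496). CENPE had a log2 change of -0.04, with values from 7.80 to 13.0 FPKM in wild type and from 8.11 to 13.9 FPKM under the IK-KO label.

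**Figure D3:**
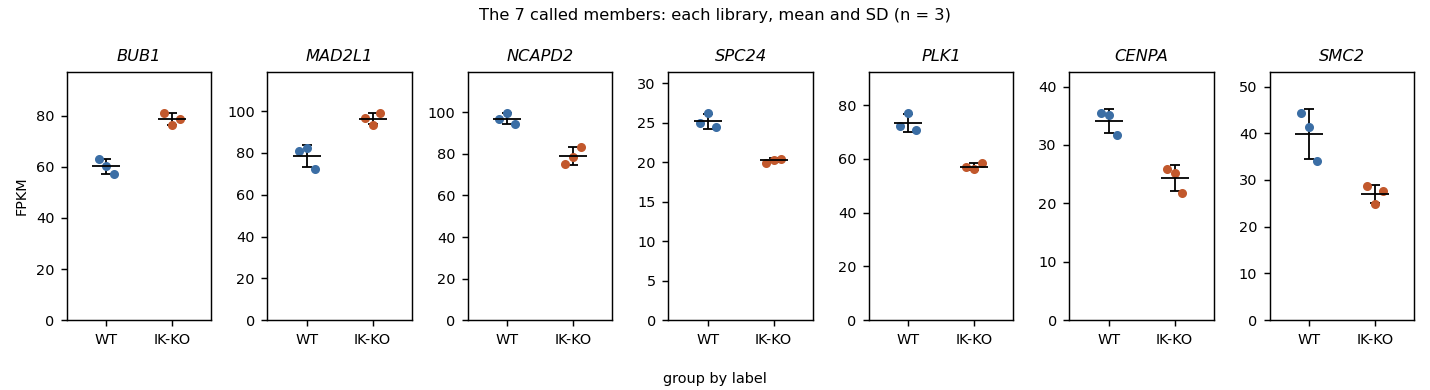
FPKM of the 7 called mitotic genes, 1 panel per gene with its own axis from 0, points for single libraries, and lines with bars for the mean and SD of 3 libraries. In each panel the wild type and IK-KO libraries do not overlap, with BUB1 and MAD2L1 higher in the libraries labelled IK-KO and NCAPD2, SPC24, PLK1, CENPA and SMC2 lower.

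Neither spindle assembly gene was called, beside 19.9% of all tested genes. KIF11, the kinesin that pushes the spindle poles apart, was at 37.1 ± 3.66 and 36.7 ± 0.909 FPKM (SD, n = 3). TPX2, which activates AURKA and nucleates spindle microtubules, was at 114, 116 and 105 FPKM in wild type, against 123, 122 and 132 FPKM under the IK-KO label. The TPX2 groups did not overlap, with a log2 change of 0.17 (limma SE 0.06, adjusted p = 0.0849).

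The central spindle and cytokinesis genes included no call among 6, beside 19.9% of all tested genes. The groups overlapped in every one of the 6, while they were fully separate in 39% of all tested genes. KIF23 and RACGAP1, which together form centralspindlin, had log2 changes of -0.20 (limma adjusted p = 0.157) and -0.09 (0.391). ECT2, the exchange factor that centralspindlin recruits to activate RhoA, had a log2 change of -0.18 (limma adjusted p = 0.224), and ANLN, which links RhoA to the contractile ring, one of 0.11 (0.474). PRC1, the microtubule bundler of the midzone, was at 43.7 ± 5.52 and 43.97 ± 0.498 FPKM (SD, n = 3), and 57.6% of its exon bases lie in a second annotated gene on the same strand listed at up to 4.63 FPKM. KIF20A, the kinesin that brings Aurora B to the midzone, had a log2 change of -0.15 (limma adjusted p = 0.201). After its neighbours' median change was subtracted, KIF20A was called, at -0.25 (limma adjusted p = 0.0259).

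The wild type libraries differed in their typical level of the mitotic genes, though not in the same way for every gene. Wild type replicate 3 was the lowest wild type library in 32 of the 40 genes, against 54.9% of all tested genes. The median deviation of the 40 genes from their mean over the 6 libraries was 0.06, 0.05 and -0.07 in the wild type libraries and 0.01, -0.04 and 0.01 in the others, in the order of their replicate numbers. The median over all tested genes in wild type replicate 3 was also -0.07. After each library was rescaled by its median ratio, the medians of the 40 genes were 0.05, 0.02 and 0.01 in wild type and -0.01, -0.06 and 0.01 in the libraries labelled IK-KO. Without wild type replicate 3 the median change of the 40 genes was -0.08, and 7 were still called, the same genes.

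**Figure D4:**
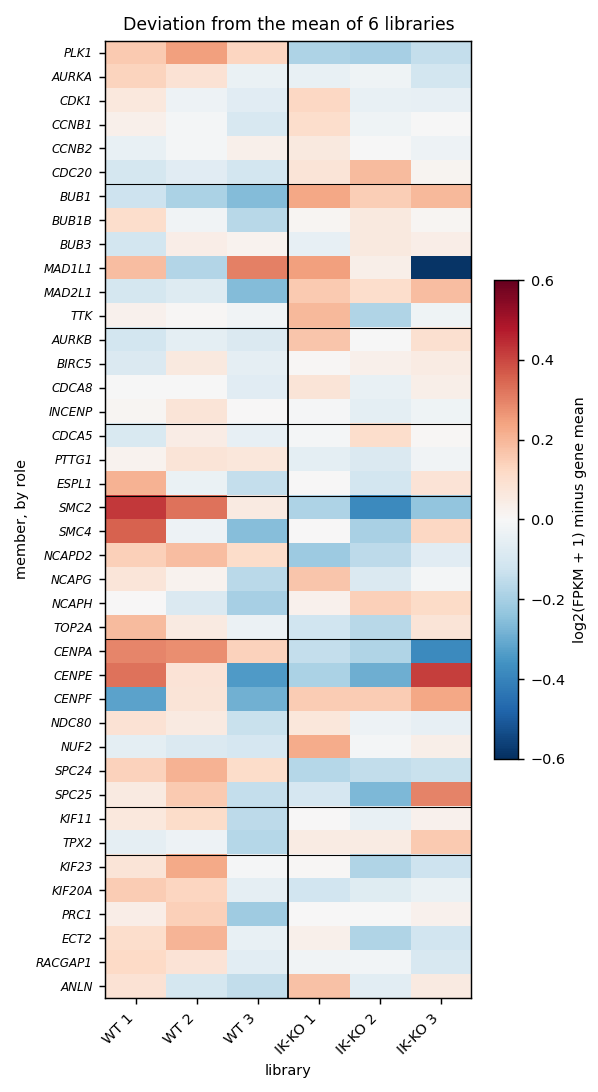
Deviation of log2(FPKM + 1) of each mitotic gene from its mean over 6 libraries, 1 column per library and 1 row per gene grouped by role, red for higher and blue for lower. Wild type replicate 3 is mostly paler or bluer than the other wild type libraries, with a median of -0.07, and the 7 called genes change colour between the groups.

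The promoters of mitotic genes are known for letters that the DREAM and MuvB-FOXM1 complexes and the factor NF-Y use, the cell cycle homology region (TTTGAA) and the CCAAT box. RefSeq windows (GRCh38.p14) of 300 bases, 250 before and 50 after each annotated start, were found for 34 of the 40 genes, with 40 windows in all. TTTGAA, searched on both strands, stood in 26 of the 40 windows (65%), beside 15.2% of all 35116 windows and 10.5% of the 12942 windows of tested genes. CCAAT, also on both strands, stood in 27 (67.5%), beside 34.6% and 35.6%. Both were found in 18 windows (45%), beside 5.90% and 4.16%. TGGGAA, which holds the core that IKAROS is known to bind, stood in 12 (30%), beside 24.0% and 21.6%. No motif contains another, though their ends can share bases, and a match describes the sequence and is not a site of binding.

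The 150 bases before the start are shown, 5′ to 3′ on the strand of the gene, for the 4 genes called in every alternative, because they show CCAAT letters both in a gene that rose and in genes that fell. Capitals mark TTTGAA and CCAAT on either strand, so that CCAAT on the opposite strand reads ATTGG. The stretches lie at chr16:23678739-23678888 (plus strand) for PLK1, chr2:26785906-26786055 (plus) for CENPA, chr12:6493952-6494101 (plus) for NCAPD2 and chr2:110678064-110678213 (minus) for BUB1.
PLK1: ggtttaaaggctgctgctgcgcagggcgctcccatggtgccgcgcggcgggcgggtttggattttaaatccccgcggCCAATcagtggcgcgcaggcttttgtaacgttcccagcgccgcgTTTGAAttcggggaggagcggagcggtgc
CENPA: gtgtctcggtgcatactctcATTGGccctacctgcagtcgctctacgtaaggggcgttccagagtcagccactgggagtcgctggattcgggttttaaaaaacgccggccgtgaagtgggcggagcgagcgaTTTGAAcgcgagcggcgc
NCAPD2: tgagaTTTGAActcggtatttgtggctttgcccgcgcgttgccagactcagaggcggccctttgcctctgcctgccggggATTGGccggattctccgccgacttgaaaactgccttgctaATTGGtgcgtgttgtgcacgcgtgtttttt
BUB1: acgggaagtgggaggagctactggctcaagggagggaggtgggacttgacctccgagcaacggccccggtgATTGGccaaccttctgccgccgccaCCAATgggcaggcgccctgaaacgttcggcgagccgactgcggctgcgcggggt

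In PLK1 a CCAAT box begins 73 bases before the start and TTTGAA 29 bases before it. CENPA carries TTTGAA 18 bases before the start, and NCAPD2 carries it 145 bases before. BUB1, which rose, has CCAAT letters at 79 and 54 bases before the start and no TTTGAA in its window. The windows of MAD2L1, which rose, and of PLK1, CENPA and NCAPD2, which fell, hold both motifs, and so do those of 13 genes that were not called.

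The regulators named for these promoters were compared next, among 149 tested genes of mitosis and its control other than the 40. FOXM1, the forkhead factor of G2 and M genes, was at 57.4 ± 3.10 and 55.7 ± 1.99 FPKM (SD, n = 3), a log2 change of -0.04 (limma adjusted p = 0.675). MYBL2, which acts with MuvB, had a log2 change of 0.03 (limma adjusted p = 0.697). Neither was called. MKI67, a marker of cycling cells, was not called either, with a log2 change of -0.14 (95% interval from -0.29 to 0.01, limma adjusted p = 0.182). Nor was CCNA2, which encodes cyclin A2, with a log2 change of -0.03 (limma adjusted p = 0.732).

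Of the 19 transcription regulators listed, 6 were called (31.6%, against 19.9% of all tested genes), and this list too was chosen with earlier results known. NFYA, the DNA-binding subunit of NF-Y, was at 42.1, 41.9 and 37.1 FPKM in wild type, against 71.0, 62.0 and 65.5 FPKM under the IK-KO label, a log2 change of 0.70 (limma SE 0.08, adjusted p = 0.00116). Its neighbours on chromosome 6 had a median change of 0.21, and with that removed the change was 0.49 (limma adjusted p = 0.00435). NFYB, its partner subunit, rose by 0.40 on the log2 scale (limma adjusted p = 0.0101), and NFYC, named after its values were seen, had a log2 change of 0.07 (0.504). CDKN1A, which encodes the CDK inhibitor p21, was at 2.46, 2.44 and 1.89 FPKM in wild type, against 6.31, 5.03 and 4.16 FPKM under the IK-KO label. Both groups were low, and the log2 change of 0.91 (limma SE 0.16, adjusted p = 0.00869) became 0.69 (0.0207) with the change of its chromosome 6 neighbours removed.

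Over all 149 genes, 25 were called (16.8%, against the 19.9% above), 15 higher and 10 lower, with a median log2 change of 0.000879. This split turned with the scaling, to 17 higher and 18 lower with median-ratio scaling, 16 and 17 with quantile normalization, and 14 and 17 without mitochondrial genes. The count fell to 14 without wild type replicate 2 (11 higher and 3 lower) and to 14 without IK-KO replicate 1 (9 and 5). It was 16 when wild type replicate 1 was left out, and 16 again for IK-KO replicate 2 and for IK-KO replicate 3. Beside NFYA, NFYB and CDKN1A, the largest rises were HAUS1, a subunit of the augmin complex that branches spindle microtubules (log2 change 0.58, limma adjusted p = 0.00338), and RAD21, the kleisin of cohesin (0.44, 0.00199). The largest falls were CENPP (-0.66, limma adjusted p = 0.0164), an inner kinetochore protein, KIF20B (-0.60, 0.0129), a kinesin of cytokinesis, CDK5RAP2 (-0.58, 0.0213), a centrosome protein, KIF24 (-0.48, 0.0377), a kinesin of the centriole, and CKS2 (-0.40, 0.0408), a subunit that binds CDK1. All of these falls except that of KIF20B were of genes on chromosome 9, whose neighbours had medians between -0.35 and -0.34, and with these removed none of the 4 was called (limma adjusted p from 0.0879 to 0.836).

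**Figure D5:**
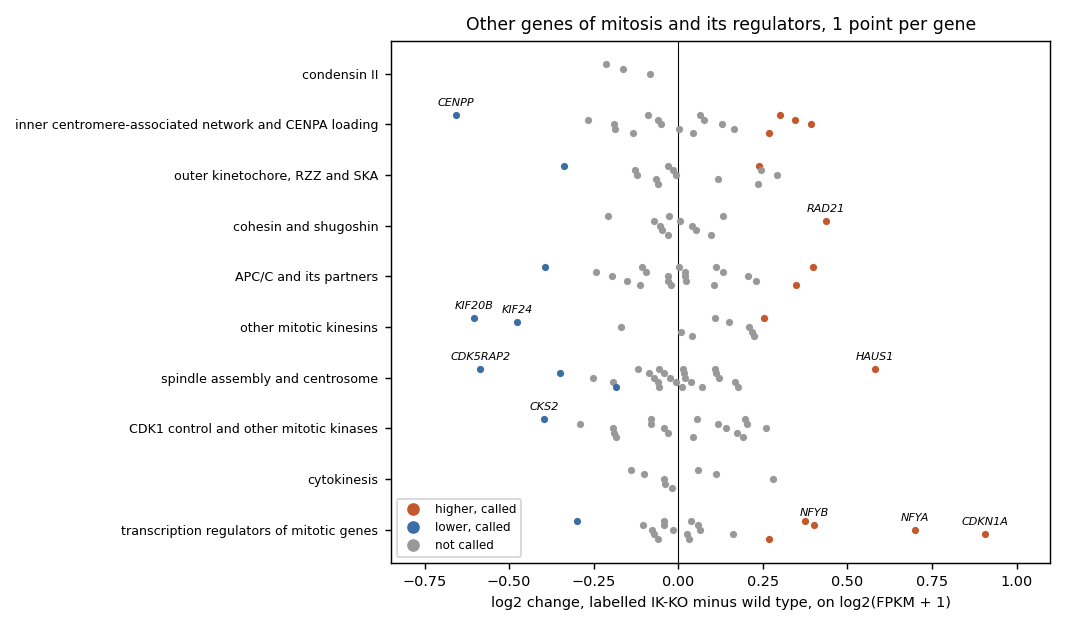
Log2 change, libraries labelled IK-KO minus wild type on log2(FPKM + 1), of 149 other genes of mitosis and its regulators, 1 point per gene and 1 row per group, coloured where called. The 15 called higher and 10 called lower genes are spread over the groups, condensin II and cytokinesis have none, and the largest changes are those of CDKN1A (0.91) and CENPP (-0.66).

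By group, the calls are given beside the 19.9% of all tested genes, and beside the count with the neighbours' change removed, for which 18.1% of all tested genes were called. Over all 149 genes, 19 were called with that change removed, and 14 of these were among the 25 called before. The counts below therefore need not hold the same genes. Condensin II, which acts beside condensin I, had 0 of 3 genes called by limma, with 1 at an unadjusted p under 0.05 and 1 called with the neighbours' change removed. Of the 18 genes of the inner centromere and of CENPA loading, 4 rose and 1 fell (27.8%), and 2 were called with the neighbours' change removed. Of 13 outer kinetochore genes, 1 rose and 1 fell (15.4%), and 1 was called after that removal. Of 21 genes of the APC/C and its partners, 2 rose and 1 fell (14.3%), and 3 were called after it, not all of them the same genes. Of 11 other mitotic kinesins, 1 rose and 2 fell (27.3%), with 1 called after it. Of 26 spindle assembly and centrosome genes, 1 rose and 3 fell (15.4%), with 2 after it. Of 12 cohesin and shugoshin genes 1 rose (8.33%), with 1 after it. Of 18 genes of CDK1 control and other mitotic kinases 1 fell (5.56%), with 2 other genes after it. Cytokinesis had 0 of 8 both ways. As a side by side from an earlier stage of the cell cycle, 4 of 24 S-phase genes were called (16.7%), 3 higher and 1 lower, and 2 after the removal. Their log2 changes had a median of 0.05.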

How the data were processed

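PolyA RNA of MOLT-4 was sequenced in 3 wild type and 3 IK-KO libraries, grouped by their labels. The deposited tables hold 1 FPKM value per gene with confidence bounds, which the authors scaled for transcript length and library depth. The submitters' processing notes name STAR 2.6.1c, Cufflinks 2.2.1, HOMER 4.10 and hg38. The annotation and the strand setting are not given in the sources used here, and all 49727 identifiers that also occur in GENCODE 44 lie at the same position on GRCh38. The study's RNA-seq methods describe mouse counts and merged technical replicates, so they were not followed.

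Rows of 1 identifier were summed (110 identifiers), and 29 identifiers with a failed estimate were left out. Changes in log2(FPKM + 1) were fitted for 12652 genes (mean FPKM of 1 or more) with limma 3.58.1 in R 4.3.3 (lmFit, eBayes with trend, two-sided, Benjamini-Hochberg over all tested genes), and called at an adjusted p under 0.05. A change on this scale understates that of low genes. No fragment counts are given, so the depth is unknown and precision was read from the confidence bounds. The rows above 0 numbered 21254 to 21887 per library, and mitochondrial transcripts held 13.0% to 14.4% of FPKM.

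For each gene, the 25 nearest tested genes on each side, or fewer near a chromosome end, were taken as neighbours. The median of their deviations from their own means was computed in each library. The neighbours' median change is the mean of these medians in the IK-KO libraries minus that in wild type. The fit was tested on simulated data. Alternatives changed the pseudocount, the filter, the scaling, the block, the neighbours' change, the trend and the libraries. Genes named are all 40 members, FOXM1, MYBL2, MKI67, CCNA2 and CDKN1A, and the called genes among the 5 largest rises and 5 largest falls of the other mitotic genes. The members and lists were chosen with earlier results of these data known.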

Additional observations from a re-analysis of the deposited data

How the results depend on the processing

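Over the 9 alternatives that kept all 6 libraries, 6 to 8 of the 40 mitotic genes were called, and no change of a called gene turned its direction. Over the 15 alternatives, 4 genes (PLK1, BUB1, CENPA, NCAPD2) were called in every fit, 30 in none, and PTTG1, KIF20A and CENPF were gained in at least 1. Leaving out each library in turn gave 6 to 7 called mitotic genes (1 to 3 higher and 3 to 5 lower, 3 lower without wild type replicate 2), a median log2 change from -0.07534 (without wild type replicate 3) to 0.03013, 14 to 21 of the other mitotic genes, 1 to 3 S-phase genes and 1720 to 2042 genes in all. Without the filter on low values, 14 of the other mitotic genes and 2 S-phase genes were called. S-phase genes also numbered 2 with the neighbours' change removed and without the trend in eBayes. The causes of these differences were not tested. Over all tested genes, same-numbered replicates did not deviate together (r of 0.0669, 0.0248 and 0.00546). With 3 libraries a group, this cannot show whether same-numbered libraries were prepared together. With the replicate number as a block, 6 mitotic genes (1 higher), 2 S-phase genes and 1805 genes in all were called. With 3 libraries a group and no counts, changes within the width of the intervals given above could not be resolved.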
